A study of Mustela putorius furo and Mus musculus with 4 samples.

Results

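Sialyltransferases, galactosyltransferases, fucosyltransferases and their partner N-acetylglucosaminyltransferases and N-acetylgalactosaminyltransferases build the outer sugar chains of glycoproteins and glycolipids. They were compared here between cultured ferret and mouse astrocytes. Members were chosen by symbol alone: every gene of the ST3GAL, ST6GAL, ST6GALNAC, ST8SIA, B3GALT, B4GALT, B3GNT, B4GALNT, GALNT, FUT and MGAT families, with A4GALT, that carried a value in both species. This gave 72 members in 12 families, out of 13373 gene symbols shared by both species. Symbols of these families with a value in only one species, such as GALNT2 in ferret and St6galnac6, St8sia1, Galnt4 and B3galt6 in mouse, were not compared, and the families are complete only as far as the symbols matched. Which ferret gene carries which symbol, and how complete its gene model is, comes from the authors' annotation and was not tested here, and this applies to every isozyme pair below. Of these, 52 members reached a species mean of 1 FPKM in ferret, mouse or both and were tested, among 10204 genes tested in all. FPKM counts sequenced fragments relative to exon length and to the total mapped for that library.

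The libraries were 2 from ferret astrocytes and 2 from ICR mouse astrocytes, made from polyA-selected RNA by a stranded protocol. Ferret cultures came from cerebral cortices on postnatal day 1, with 1 pup spread over 4 flasks, and mouse cultures from cortices on postnatal day 1 to 3, with 4 pups in 1 flask. No transgene or genetic change is named in the labels. Cells of both species grew as mixed glia in serum for 14 days, and after shaking the attached cells were replated. From day 3 of replating both were kept in serum-free medium with HB-EGF, and RNA was taken on day 7. No source used here says whether the duplicates came from separate cultures or animals, so p-values measure only the spread between these libraries. Species, genome annotation and culture cannot be told apart in this design. With 2 libraries in each species, the smallest two-sided p of an exact permutation test is 0.333.

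Glycan chains are made in the Golgi by enzymes that each add a particular sugar in a particular linkage. N-acetylglucosaminyltransferases of the MGAT family set how many branches an N-glycan carries, galactosyltransferases extend the branches, and sialyltransferases and fucosyltransferases cap or decorate them. GALNT enzymes start the O-glycans of mucin type, and another set of the same enzymes builds gangliosides, the sialic acid glycolipids that are abundant in brain. In brain these chains include polysialic acid on NCAM and the Lewis X epitope carried by neural progenitors and some astrocytes.

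Of the 52 members tested, 26 (50%) were called different between species, which required an adjusted p under 0.05 together with a log2 difference beyond 1 in either direction, against 43.2% of all genes tested. Ferret astrocytes had the higher level for 10 of them (19.2%, against 13.1% of all genes) and the lower level for 16 (30.8%, against 30.1% of all genes). The share lower in ferret was therefore close to that of all genes. By the adjusted p alone, 48 members differed, but so did 88.6% of all genes. The libraries of the species did not overlap for 50 of the 52 members: ferret lay above mouse for 18 (34.6%, against 35.1% of all genes) and below it for 32 (61.5%, against 59.0%). All tests are from limma on log2(FPKM + 1) with Benjamini-Hochberg adjustment over all genes tested. Differences are ferret minus mouse on this scale, which understates the change of low genes.

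Beside these counts, the shared symbols summed to less FPKM in ferret than in mouse, 227391 and 236543 against 300465 and 308121. The median difference of all genes was -0.35 as deposited and that of the members was -0.47. With the libraries rescaled to the same sum, the median of all genes was -0.01 and that of the members -0.10. The split of calls then became 14 members higher and 14 lower in ferret, against 19.1% and 21.7% of all genes (40.9% in either direction). A common sum of 1000000 gave 14 and 16, against 21.5% and 24.9% (46.4% in either direction), and quantile normalization 14 and 14, against 20.4% each way (40.8% in either direction). The members together made up 0.192% and 0.19% of the shared sum in ferret and 0.198% and 0.196% in mouse. Duplicates of the members differed by a median of 0.0892 in ferret and 0.0643 in mouse on the log2 scale, close to 0.081 and 0.0649 for all genes.

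**Figure D1:**
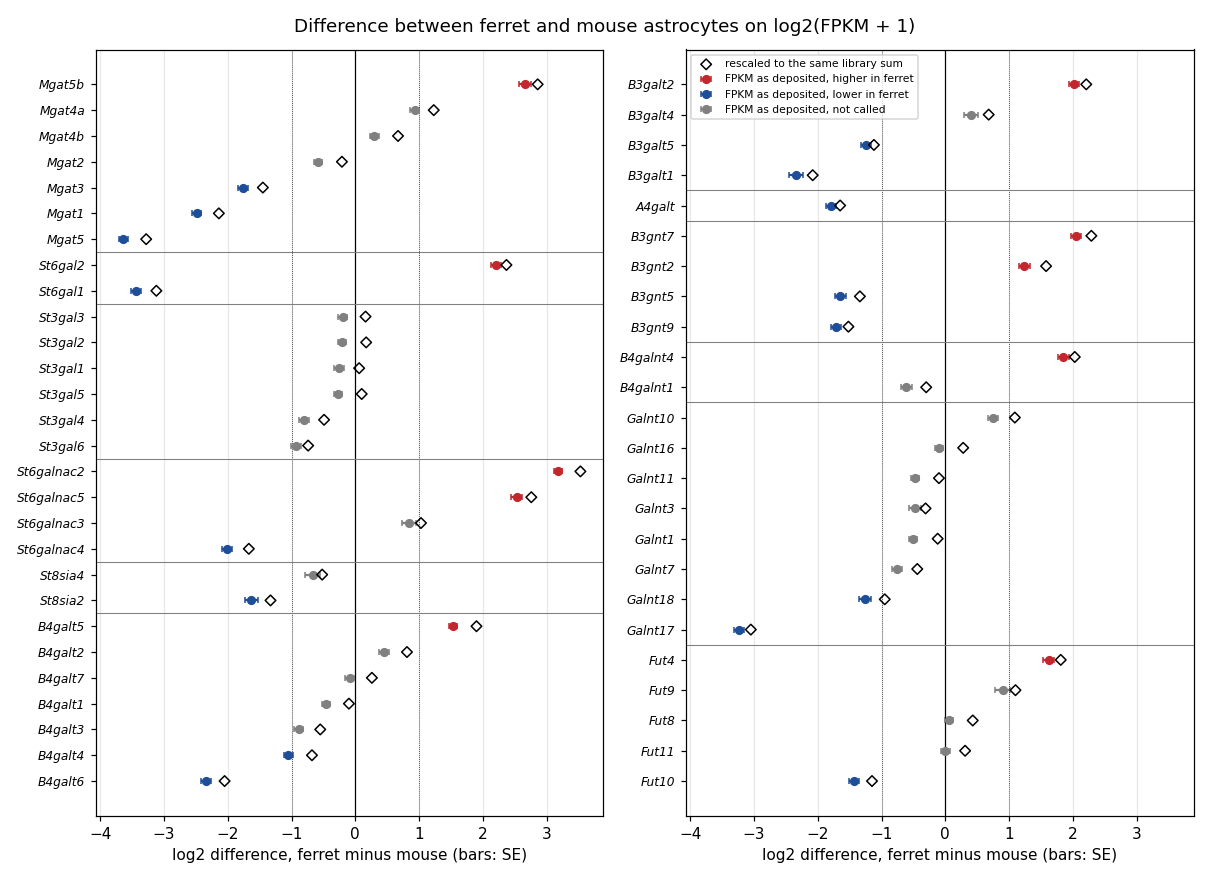
Difference in level between ferret and mouse astrocytes for the 52 members tested, in log2(FPKM + 1), ordered by family from top to bottom. Filled points with SE bars are the deposited values, coloured by call, open diamonds are the same difference after rescaling the libraries to the same sum, and dotted lines mark 1 and -1. Rescaling moved the points to the right, and the members of the ST3GAL family crossed or approached 0 while Mgat5, St6gal1 and St6galnac2 stayed far from it.

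The cultures also differed in markers of cell types, whose part in the results below was not tested. In these bulk samples fewer cells of a type and less RNA per cell cannot be told apart. Of 9 astrocyte markers, Gfap was alike (1480 and 1520 FPKM in ferret, 1430 and 1550 in mouse), 5 were lower and 1 was higher in ferret (4 and 2 after rescaling), and Slc1a2 was at 0.133 and 0.178 in ferret. Microglial markers were lower in ferret for 14 of 14, with sums of 10.3 to 11.2 FPKM against 761 to 785 and Cx3cr1 at 0 in both ferret libraries. Meningeal fibroblast markers were lower for 9 of 9 tested, with sums of 112 to 127 against 1570 to 1590. Dpt was below the filter, at 0 in ferret and 0.112 and 0.172 in mouse. Endothelial markers were lower for 3 of 3 tested, with sums of 0.762 to 0.788 against 28.3 to 28.9. Most of the mouse sum was Cdh5, at 22.0 and 22.5 FPKM, which was at 0 in ferret, as was Tek. Below the filter, Pecam1 was at 0 in ferret but also near 0 in mouse (0.0407 and 0.0312). Cldn5 was at 0 in mouse, and Vwf was higher in ferret (0.193 and 0.275 against 0.128 and 0.137). Oligodendrocyte lineage markers were higher in ferret for 4 of 9 (6 after rescaling), with sums of 170 to 190 against 69.5 to 69.6. Schwann cell markers were higher for 4 of 8 and lower for 1 (Cdh19), with sums of 476 to 482 against 217 to 235. Most of that gap was S100b (247 and 244 against 57.3 and 63.1), which is also the astrocyte marker counted as higher as deposited. Sox10 is counted among both Schwann cell and oligodendrocyte lineage markers. Pmp22 lay lower in ferret (107 and 105 against 147 and 161) and was not called. Neuronal markers were higher for 3 of 5, while their sums lay at 54.7 to 54.9 in ferret and 51.9 to 54.7 in mouse. For comparison with these counts, 13.1% of all genes tested were called higher and 30.1% lower in ferret, and 19.1% and 21.7% after rescaling.

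**Figure D2:**
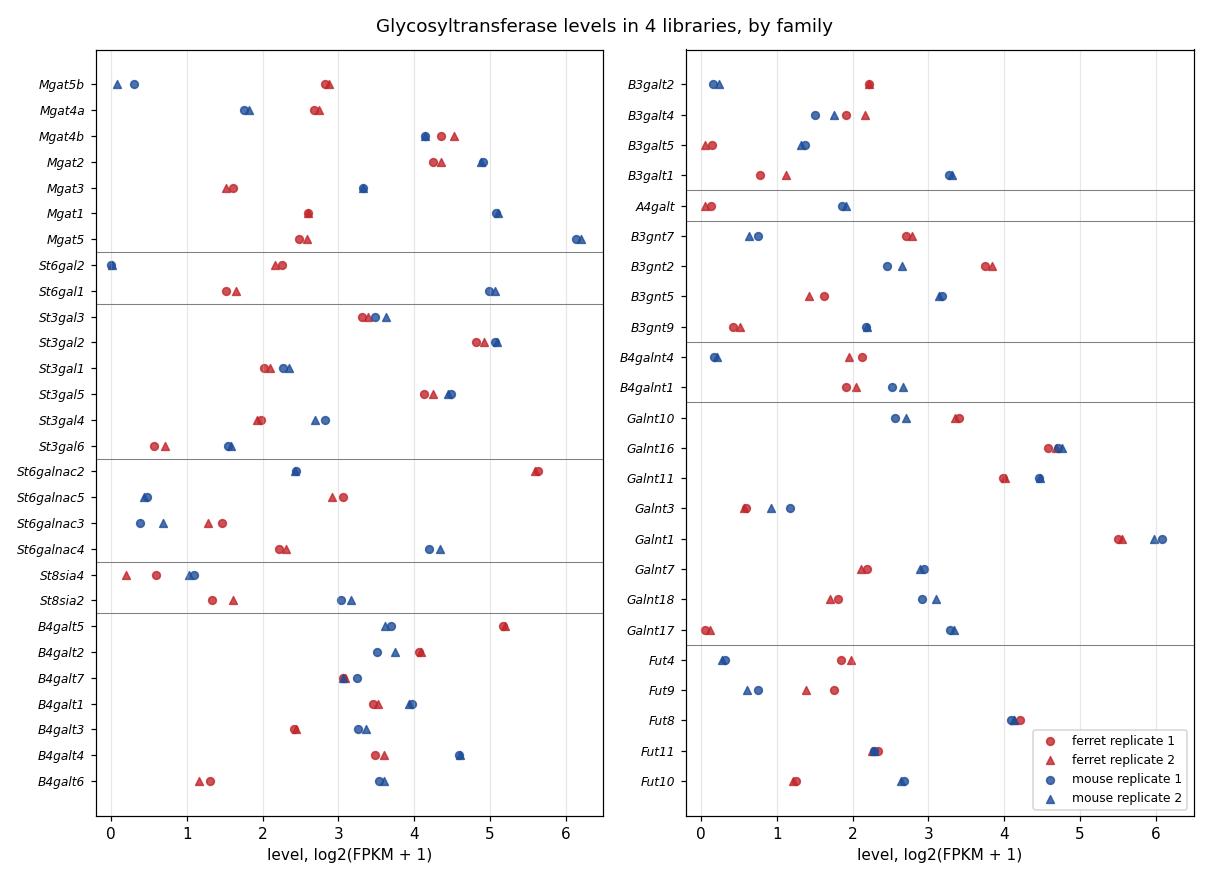
Level of the 52 members tested in each of the 4 libraries, in log2(FPKM + 1), with ferret in red and mouse in blue and the families set apart by lines. Duplicates lie close together, and the widest gaps between species are those of Mgat5, St6gal1, Galnt17 and St6galnac2.

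The MGAT family, which branches N-glycans, held the member with the largest difference on this scale, although with a pseudocount of 0.1 Galnt17 (-5.82), St6gal2 (5.17) and Mgat5b (4.79) lay beyond Mgat5 (-3.86). Mgat5, which adds the beta-1,6 branch to N-glycans, was at 4.57 and 5.03 FPKM in ferret and at 69.4 and 73.0 in mouse. It was the most abundant member of its family in mouse, and its mean was 14.8 times higher there (difference -3.64, SE 0.0678, adjusted p = 5.63e-11). Mgat5b, the brain isozyme that branches O-mannose glycans, ran the other way, at 6.10 and 6.33 FPKM in ferret and 0.239 and 0.0541 in mouse (2.66, SE 0.0931, adjusted p = 2.53e-09). Mgat5 therefore took 42.9% and 44.3% of this pair's summed FPKM in ferret, and 99.7% and 99.9% in mouse. Such shares within a library do not depend on how the libraries are scaled, and the pairs were picked after their values were seen, so the shares are given as a description.

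In mouse (GRCm38, GENCODE M21), the coding sequences of Mgat5 and Mgat5b are identical at 63.1% of aligned positions. The stretch below is the 60-base window in which they are most alike, among gap-free windows starting at a codon boundary of Mgat5. It is shown to give the sequence difference between these mouse genes at its smallest among those windows. It is at chr1:127397613-127412158 (plus strand, spanning the junction of exons 11 and 12 of Mgat5) and chr11:116968491-116973332 (plus strand, spanning exons 10 and 11 of Mgat5b). Capitals mark the 11 bases that differ, and the other 49 are identical.
Mgat5: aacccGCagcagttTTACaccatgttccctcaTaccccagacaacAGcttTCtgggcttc
Mgat5b: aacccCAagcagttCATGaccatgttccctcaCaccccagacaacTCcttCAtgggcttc

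Of Mgat1 and Mgat2, which act before Mgat5, Mgat1 was called lower in ferret. Mgat1, which adds the first N-acetylglucosamine and so opens the way to hybrid and complex N-glycans, was at 5.09 and 5.05 FPKM in ferret and 32.8 and 33.4 in mouse (-2.49, SE 0.0634, adjusted p = 3.31e-10). Mgat2, which starts the next antenna, was at 18 and 19.4 against 29.0 and 28.4 FPKM and was not called (-0.59). The share of Mgat1 in the sum of these enzymes was 22.0% and 20.6% in ferret and 53.1% and 54.1% in mouse. Mgat3, which adds the bisecting N-acetylglucosamine, was at 2.06 and 1.86 FPKM in ferret and 9.02 and 9.0 in mouse (-1.76, adjusted p = 1.04e-08). The libraries of the species did not overlap for any of these genes, but ferret lay below mouse without overlap for 59.0% of all genes.

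The beta-1,4 branching enzymes did not share this direction. Mgat4a was at 5.40 and 5.69 FPKM in ferret and 2.37 and 2.52 in mouse, with a difference of 0.93 that fell short of the threshold on size and passed it after rescaling, at 1.23. Mgat4b, the most abundant member of the family in ferret, was at 19.4 and 22.1 FPKM against 16.7 and 16.7 in mouse (0.30). Core fucosylation, by Fut8, was at 17.5 and 16.5 FPKM in ferret and 16.0 and 16.5 in mouse, a difference of 0.06 with an SE of 0.0648 (adjusted p = 0.368). In all, of the 8 genes listed for N-glycan branching and core fucose, 1 was higher in ferret and 3 were lower, against 13.1% and 30.1% of all genes. The higher one was Mgat5b, described above as the isozyme for O-mannose glycans.

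The genes for alpha-2,6-sialylation of galactose differed in opposite directions. St6gal1, which caps N-glycan antennae in most tissues, was at 1.87 and 2.14 FPKM in ferret and at 30.9 and 32.4 in mouse (-3.44, SE 0.0748, adjusted p = 1.29e-10). Its mean was 15.8 times higher in mouse. St6gal2, which makes the same linkage and is found mainly in brain, was at 3.78 and 3.50 FPKM in ferret, and in mouse was listed at 0 in one library and at 0.00836 in the other (2.21, SE 0.0778, adjusted p = 2.65e-09). St6gal1 was thus the larger isozyme in both mouse libraries and the smaller one in both ferret libraries, with 33.1% and 38.0% of the pair there. The family sum stayed lower in ferret, at 5.65 and 5.64 FPKM against 30.9 and 32.4, a ratio of 5.61 that was 4.27 after rescaling.

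St6gal1 and St6gal2 are identical at 60.6% of aligned coding positions in mouse. The window in which they are most alike lies in exon 7 of St6gal1 (GRCm38 chr16:23356275-23356334, plus strand) and exon 5 of St6gal2 (chr17:55498298-55498357, plus strand). It is printed to show the 16 bases, in capitals, that differ between the mouse genes there.
St6gal1: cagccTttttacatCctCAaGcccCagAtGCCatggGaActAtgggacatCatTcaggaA
St6gal2: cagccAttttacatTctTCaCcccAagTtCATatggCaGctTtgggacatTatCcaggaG

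Alpha-2,3-sialyltransferases, by contrast, had no member called as deposited, against 43.2% of all genes. All 6 ST3GAL genes were tested, and as deposited their differences ran from -0.93 for St3gal6 to -0.20 for St3gal3. With the libraries rescaled, St3gal1, St3gal2, St3gal3 and St3gal5 turned to between 0.06 and 0.17, so the direction of the family depends on the scaling. St3gal2, which acts on O-glycans and gangliosides, was the most abundant in both species, at 27.2 and 29.4 FPKM in ferret and 32.5 and 33.3 in mouse. It made up 46.0% and 46.1% of the family sum in ferret and 42.8% and 43.2% in mouse. St3gal3 was at 8.96 and 9.51 against 10.2 and 11.4 FPKM, St3gal4 at 2.96 and 2.82 against 6.09 and 5.49, and St3gal6 at 0.482 and 0.632 against 1.93 and 2.00. St3gal1, which sialylates core 1 O-glycans, was at 3.05 and 3.29 against 3.81 and 4.11 FPKM. St3gal3, St3gal4 and St3gal6 cap N-acetyllactosamine, and St3gal4 and St3gal6 kept their lower level in ferret under each scaling.

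Galactosyltransferases of the B4GALT family summed to similar levels, 84.2 and 86.8 FPKM in ferret and 87.9 and 89.3 in mouse, but the members that made up the sum differed. B4galt5, a lactosylceramide synthase, was the most abundant in ferret at 35.1 and 35.8 FPKM, against 12.0 and 11.3 in mouse (1.53, SE 0.0628, adjusted p = 7.55e-09). B4galt6, the other lactosylceramide synthase, was at 1.48 and 1.24 FPKM in ferret and 10.6 and 11.2 in mouse (-2.34, SE 0.0818, adjusted p = 2.50e-09). B4galt5 was therefore 96.0% and 96.7% of this pair in ferret and 53.0% and 50.2% in mouse. Their coding sequences are the closest of the 4 pairs aligned, identical at 70.1% of positions in mouse, and no run of 31 bases is shared between them.

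The other B4GALT enzymes moved less. B4galt4, which makes N-acetyllactosamine, was the most abundant in mouse at 23.1 and 23.4 FPKM, against 10.2 and 11.2 in ferret (-1.05, adjusted p = 2.03e-07). This call was lost when the libraries were rescaled, at -0.68. B4galt1, the main enzyme of N-glycan antennae in many tissues, was at 9.98 and 10.5 against 14.7 and 14.3 FPKM (-0.46), B4galt2 at 15.7 and 16.1 against 10.4 and 12.4 (0.45), and B4galt3 at 4.32 and 4.45 against 8.61 and 9.33 (-0.89). None of these was called. In the mouse annotation 28.2% of the exonic bases of B4galt2 are also exonic in another gene on the same strand, so its mouse level is uncertain. B4galt2 and B4galt3 are the 1 pair of members, among 2556 pairs, whose coding sequences share runs of 31 bases. No pair shares a run of 50 bases, and how reads were assigned was not tested. B4galt7, which adds the first galactose of the glycosaminoglycan linker, was at 7.35 and 7.49 FPKM in ferret and 8.53 and 7.36 in mouse, and its libraries overlapped (-0.08, adjusted p = 0.346).

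The B3GALT genes, most of which make the beta-1,3-galactose of type 1 chains, also differed in opposite directions. B3galt1 was at 0.719 and 1.18 FPKM in ferret and 8.65 and 8.98 in mouse (-2.34, SE 0.109, adjusted p = 1.86e-08). B3galt2 was at 3.65 and 3.65 in ferret and 0.117 and 0.176 in mouse (2.02, SE 0.0769, adjusted p = 4.50e-09). B3galt1 made up 16.5% and 24.4% of the pair in ferret and 98.7% and 98.1% in mouse. B3galt5 was at 0.106 and 0.0412 FPKM in ferret and 1.60 and 1.49 in mouse (-1.24, adjusted p = 1.84e-07). A4galt, which makes the globoside Gb3 from lactosylceramide, was near 0 in ferret, at 0.0984 and 0.0384 FPKM, and at 2.63 and 2.77 in mouse (-1.79, SE 0.0785, adjusted p = 1.18e-08).

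B3galt1 and B3galt2 are identical at 59.9% of aligned coding positions in mouse. Among gap-free windows starting at a codon boundary of B3galt1, the most similar lies in exon 2 of each gene. It is at GRCm38 chr2:68118387-68118446 (plus strand) for B3galt1 and chr1:143646797-143646856 (plus strand) for B3galt2. There 14 of 60 bases, in capitals, differ between the mouse genes.
B3galt1: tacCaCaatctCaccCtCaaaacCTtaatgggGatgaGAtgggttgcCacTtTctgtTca
B3galt2: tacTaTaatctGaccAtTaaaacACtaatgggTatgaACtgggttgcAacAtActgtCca

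**Figure D3:**
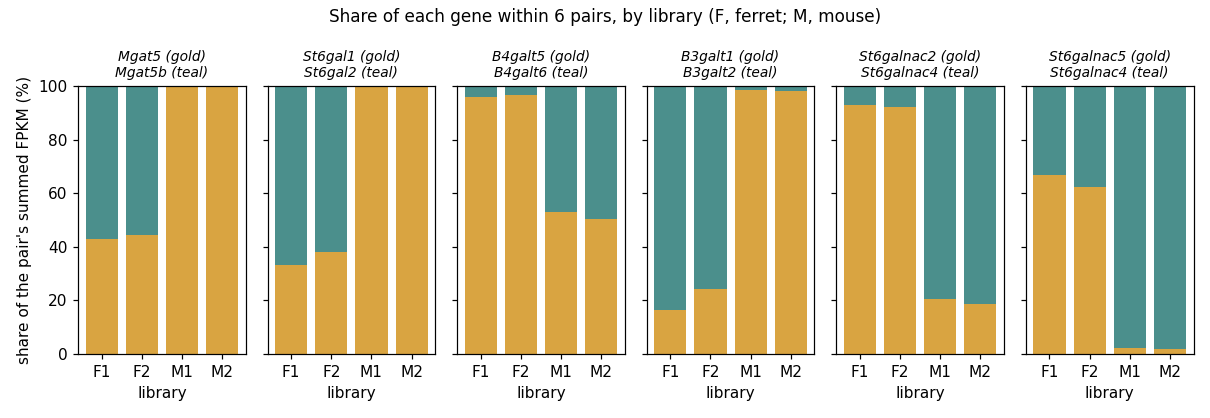
Share of each gene in the summed FPKM of 6 pairs of members, in percent, for ferret libraries F1 and F2 and mouse libraries M1 and M2, from 0 to 100%. Pairs were picked after their values were seen. Mgat5 and St6gal1 take nearly the whole bar in mouse and under 45% in ferret, whereas B4galt5 and St6galnac2 take over 92% in ferret.

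The ST6GALNAC family, which adds sialic acid to GalNAc, held the member most in excess in ferret on this scale. With a pseudocount of 0.1 St6galnac2 (3.41) came after St6gal2 (5.17) and Mgat5b (4.79), among others. St6galnac2, which adds alpha-2,6 sialic acid to the GalNAc of O-glycans, was at 48.6 and 47.4 FPKM in ferret and 4.44 and 4.39 in mouse (3.18, SE 0.0626, adjusted p = 7.76e-11). It was the most abundant member of all 72 in ferret. In mouse a further value for the same symbol stood at 0.249 and 0.317 FPKM. The paper lists St6galnac2 among its ferret-specific genes, under 1 FPKM in mouse, with a mouse value of 0.28. That equals the mean of this further value, whereas the value used here has a mouse mean of 4.41. Mouse gene models with this symbol lie at chr11:116675303-116694868 and chr11:116677483-116681290 on the minus strand. They share 383 exonic bases, 22.8% of the shorter one, and which value belongs to which model is not given. Adding both values left the gene called.

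The other ST6GALNAC enzymes tested, St6galnac3, St6galnac4 and St6galnac5, act on chains that already carry sialic acid and split by direction. St6galnac5, known for the ganglioside GD1alpha, was at 7.33 and 6.54 FPKM in ferret and 0.393 and 0.354 in mouse (2.53, SE 0.0821, adjusted p = 1.53e-09). St6galnac4 was lower in ferret, at 3.64 and 3.94 FPKM against 17.4 and 19.3 (-2.01, SE 0.0779, adjusted p = 5.04e-09). In mouse it was the most abundant of the compared ST6GALNAC members. St6galnac6, which had no ferret value, was higher still there, at 22.2 and 22.9 FPKM. St6galnac3 was at 1.76 and 1.44 against 0.306 and 0.604 FPKM, and its difference of 0.84 was not called as deposited but was after rescaling, at 1.03. The compared members summed to 61.3 and 59.3 FPKM in ferret against 22.5 and 24.6 in mouse, a ratio of 2.56 that was 3.36 after rescaling. With St6galnac6 the mouse sums were 44.7 and 47.6 and the ratio 1.31. St6galnac2 alone was 93.0% and 92.3% of its sum with St6galnac4 in ferret, and 20.4% and 18.5% in mouse.

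GALNT enzymes, which start mucin-type O-glycans by adding GalNAc to serine or threonine, were the largest family, with 15 members and 8 tested. None was called higher in ferret and 2 were called lower, against 13.1% and 30.1% of all genes. Galnt17 was at 0.0368 and 0.0863 FPKM in ferret and 8.79 and 9.11 in mouse (-3.23, SE 0.0768, adjusted p = 2.15e-10). Galnt18 was at 2.49 and 2.25 against 6.54 and 7.61 FPKM (-1.26, adjusted p = 4.00e-07), and its call was lost after rescaling, at -0.95. Galnt1, the most abundant of the family in both species, was at 44.3 and 46.2 FPKM in ferret and 67.1 and 62.2 in mouse (-0.51, not called). Galnt16 was at 22.9 and 24.8 against 25.2 and 26.1 FPKM (-0.10, adjusted p = 0.167), and turned to 0.28 after rescaling. The remaining members tested, Galnt3, Galnt7, Galnt10 and Galnt11, had differences of -0.76 to 0.75 and were not called, though Galnt10 was after rescaling, at 1.09.

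Of 13 genes listed for ganglioside synthesis 9 were tested, of which 2 were higher in ferret (B4galt5 and St6galnac5) and 1 was lower (B4galt6), against 13.1% and 30.1% of all genes. St8sia1, the GD3 synthase, at 5.63 and 5.58 FPKM in mouse, and St6galnac6 had no ferret value and could not be compared. St3gal5, the GM3 synthase, was at 16.5 and 18.1 FPKM in ferret and 21.4 and 20.8 in mouse (-0.27, not called). B4galnt1, which makes GM2 and GD2, was at 2.78 and 3.13 against 4.75 and 5.33 FPKM (-0.61, not called). B3galt4, which makes GM1, was at 2.76 and 3.48 against 1.85 and 2.38 FPKM (0.40, not called). St8sia5 and St8sia3 fell below the filter, at no more than 0.415 and 0.0905 FPKM in any library. The lactosylceramide synthases, which act before St3gal5, were thus called, and St3gal5, B4galnt1 and B3galt4 were not.

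Polysialic acid is made by St8sia2 and St8sia4, of which St8sia2 was the more abundant in all 4 libraries. St8sia2 was at 1.53 and 2.05 FPKM in ferret and 7.18 and 7.97 in mouse (-1.63, SE 0.101, adjusted p = 1.53e-07). St8sia4 was at 0.515 and 0.151 against 1.14 and 1.05 FPKM (-0.67, not called). The libraries of both genes lay lower in ferret without overlap, as did those of 59.0% of all genes. The 2 ferret values of St8sia4 lay far apart.

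B3GNT enzymes, which add the N-acetylglucosamine that extends lactosamine chains, had 4 members tested. Of these, 2 were higher and 2 lower in ferret, against 13.1% and 30.1% of all genes. B3gnt2, the main polylactosamine enzyme, was at 12.4 and 13.3 FPKM in ferret and 4.5 and 5.28 in mouse (1.24, SE 0.0841, adjusted p = 3.06e-07). B3gnt7, which acts in keratan sulfate synthesis, was at 5.51 and 5.92 against 0.692 and 0.557 FPKM (2.05, adjusted p = 6.36e-09). B3gnt5, which starts the lacto-series glycolipids, was lower in ferret, at 2.07 and 1.68 FPKM against 8.10 and 7.83 (-1.65, adjusted p = 4.48e-08). B3gnt9 was at 0.338 and 0.429 against 3.54 and 3.55 FPKM (-1.72, adjusted p = 1.54e-08). B3gnt2 was 85.7% and 88.8% of its sum with B3gnt5 in ferret and 35.7% and 40.3% in mouse. The leading gene of the family was thus B3gnt2 in ferret and B3gnt5 in mouse by these values. In the mouse annotation, however, 65.5% of the exonic bases of B3gnt2 are also exonic in another gene on the same strand, so the mouse level of B3gnt2 and its share are uncertain. B4galnt4, an enzyme of the LacdiNAc unit, was at 3.38 and 2.87 FPKM in ferret and 0.122 and 0.160 in mouse (1.85, adjusted p = 1.88e-08).

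Fucosyltransferases summed to 28.1 and 26.3 FPKM in ferret and 26.6 and 26.6 in mouse, and Fut8 led in both species with 62.5% and 63.0% of the sum in ferret and 60.3% and 62.2% in mouse. Fut4, an enzyme of the Lewis X epitope, was higher in ferret, at 2.60 and 2.95 FPKM against 0.242 and 0.208 (1.62, SE 0.0817, adjusted p = 3.21e-08). Fut9, the other Lewis X enzyme, was at 2.38 and 1.62 against 0.689 and 0.517 FPKM, with a difference of 0.90 that was not called as deposited but was after rescaling, at 1.10. Fut10 was lower in ferret, at 1.38 and 1.31 FPKM against 5.38 and 5.24 (-1.43, SE 0.0749, adjusted p = 4.33e-08). Fut11 was at 4.04 and 3.76 against 3.89 and 3.89 FPKM, and its libraries overlapped (adjusted p = 0.989).

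**Figure D4:**
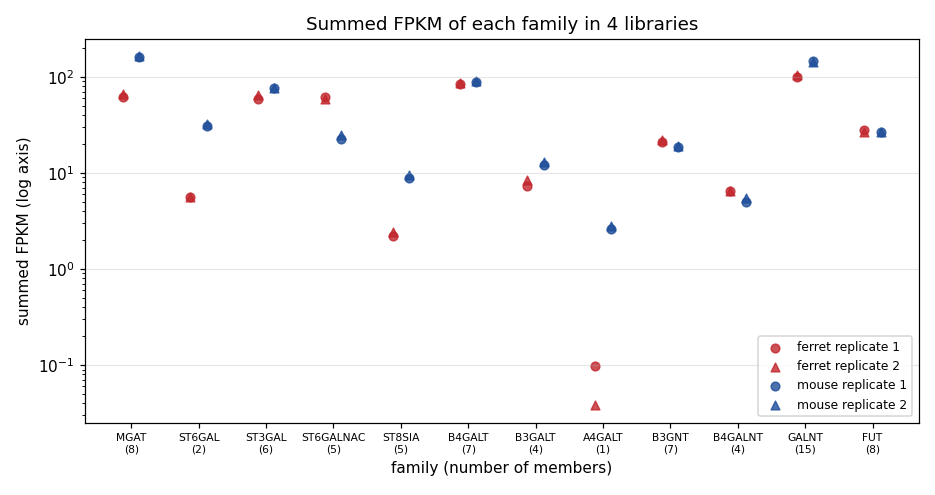
Summed FPKM of the members compared in each family in the 4 libraries, on a log axis, with ferret in red and mouse in blue. ST6GAL, ST8SIA, MGAT and A4GALT sums lie lower in ferret and the ST6GALNAC sum lies higher, while the B4GALT and FUT sums lie close together.

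By family sum, MGAT enzymes were at 60.8 and 65.5 FPKM in ferret against 159 and 163 in mouse, a mean 2.55 times higher in mouse that was 1.95 times after rescaling. The compared ST8SIA enzymes were 3.94 times higher in mouse (3.0 after rescaling), with sums of 2.2 and 2.43 against 8.74 and 9.47 FPKM, and the mouse sums were 14.4 and 15.1 with St8sia1. B3GALT enzymes summed to 7.23 and 8.35 against 12.2 and 13.0 FPKM, and GALNT enzymes to means of 102 against 144 FPKM, a ratio of 0.708 that was 0.928 after rescaling. With GALNT2, at 40.5 and 40.9 FPKM in ferret alone, and Galnt4, at 6.79 and 6.96 in mouse alone, the GALNT means were 142 and 151 FPKM. The ST3GAL ratio of ferret to mouse turned from 0.804 to 1.05 with rescaling, and the B4GALT ratio from 0.964 to 1.27. The sums were not tested and are a description.

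The 20 members below the filter reached at most 0.967 FPKM in any library. B3gnt3 and Fut2 were listed at 0 in both ferret libraries, and B3gnt8 was near 0 in ferret against 0.807 and 0.670 FPKM in mouse. Galnt14 was at 0.0189 and 0.0111 FPKM in ferret and 0.625 and 0.661 in mouse, and Galnt6 at 0.136 and 0.104 against 0.893 and 0.947. B4galnt3 ran the other way, at 0.260 and 0.391 against 0.0336 and 0.00713 FPKM. St6galnac1, Mgat4c, Fut1, Fut7, Galnt5, Galnt9, St8sia6 and B4galnt2 stayed below 0.3 FPKM in every library, and B3gnt4, Galnt12, Galnt13 and Galnt15 below 1.

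Among the genes that supply the donor sugars, none of the 5 for sialic acid supply was called as deposited, against 43.2% of all genes. After rescaling 1 was called (Nanp, higher in ferret). Gne, the entry enzyme, was at 7.11 and 7.09 FPKM in ferret and 7.15 and 7.67 in mouse (-0.05, adjusted p = 0.489), and turned to 0.29 after rescaling. Of 5 genes for GDP-fucose supply, Gmds was called lower in ferret (-1.25) and none higher, against 30.1% and 13.1% of all genes. After rescaling Gmds was no longer called (-0.89). Of 5 genes for UDP-galactose and UDP-GalNAc supply, 3 were called lower in ferret, against 30.1% of all genes, namely Galk1 (-1.14), Galk2 (-1.89) and the transporter Slc35a2 (-1.09). After rescaling only Galk2 was still called, with Galk1 at -0.79 and Slc35a2 at -0.72. On the side of removal, the sialidase Neu1 was higher in ferret, at 32.6 and 37.6 FPKM against 12.2 and 11.7 (1.48), whereas 4 of 7 lysosomal genes were lower, against 30.1% of all genes, with Fuca1 at -2.39.

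Among 13 other chain enzymes tested, 3 were higher and 4 lower in ferret, against 13.1% and 30.1% of all genes. The alpha-mannosidases that trim N-glycans after Mgat1 differed in opposite directions: Man2a1 was at 36.9 and 37.4 FPKM in ferret against 16.6 and 16.5 (1.12), and Man2a2 at 6.96 and 7.90 against 34.7 and 32.4 (-2.04). C1galt1, which makes the core 1 O-glycan, was higher in ferret, at 18.8 and 18.6 FPKM against 6.11 and 6.55 (1.43). The branching enzymes Gcnt1 (-1.89), Gcnt2 (-2.73) and Gcnt4 (-1.47) were lower.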

How the data were processed

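RNA was sequenced from 2 ferret and 2 mouse astrocyte libraries. The authors deposited 1 FPKM per gene and library, made per the submitters' processing notes with bcl2fastq 2.17, STAR 2.7.0f and Cufflinks 2.2.1 on the genome and Ensembl annotation of each species (MusPutFur1.0 and GRCm38, per the methods). FPKM depends on each species' gene models, and the deposited values hold no counts. The paper reports read counts, but these were not used, so depth was not examined here. Values listed at 0 get no fold. Whether the quantification used strand is not given in the sources used here. If it did not, mouse levels are also uncertain for members whose exonic bases overlap another gene on the opposite strand. Among those tested these include St3gal6 (26.0%), B4galnt1 (20.7%), B3gnt9 (16.5%), B4galt3 (14.5%), St3gal4 (14.1%) and B3gnt7 (12.6%).

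Symbols were matched without regard to case. For symbols with several values (7 shared symbols in ferret, 13 in mouse), the row with the highest species mean was taken. Genes whose mean reached 1 FPKM in either species were fitted with limma 3.58.1 (R 4.3.3, empirical Bayes with trend) on log2(FPKM + 1), with species as the only term, and called where the adjusted p lay under 0.05 and the log2 difference beyond 1 in either direction. On simulated data for this comparison (10204 genes, 200 changed by a log2 value of 1.5), 97.5% were recovered and 0 unchanged genes were called. Each unchanged gene was simulated around the same mean in all libraries, with the fitted spread and no shift between species. The simulation therefore cannot show how many calls come from scaling, annotation or culture. In the real data 88.6% of all genes differed by the adjusted p alone. Values in each library are printed for members called in either direction, for the most abundant member of each family in each species, and for the members of the lists for gangliosides, polysialic acid, N-glycan branching, N-glycan antennae and the glycosaminoglycan linker. The other values printed (St3gal1, Fut9, Fut11, Galnt16, members below the filter and symbols of one species) were chosen after they were seen. Members and lists were chosen with earlier results of these data known. Mouse sequences and positions are from GENCODE M21 on GRCm38, another annotation release than the authors' Ensembl release 99. Ferret sequences were not used here. Alternatives were other pseudocounts, filters and scalings, the replicate block, other handling of several rows, no trend, and leaving out each library.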

Additional observations from a re-analysis of the deposited data

How the results depend on the processing

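Of the 26 calls among the members, 24 were kept under every alternative. B4galt4 was lost under quantile normalization (-0.65), rescaling to a sum of 1000000 (-0.71) or to the mean sum (-0.68), and without ferret replicate 1 (-0.99). Galnt18 was lost under quantile normalization (-0.83) and the mean sum (-0.95). Galnt10, Mgat4a, Fut9 and St6galnac3 became calls under all 3 scalings, and St3gal6 (-1.66), St8sia4 (-1.61) and B4galt3 (-1.01) with a pseudocount of 0.1, as did Fut9, Mgat4a and St6galnac3. St3gal6 was also called at a sum of 1000000 (-1.14) and without ferret replicate 2 (-1.0), and Fut9 without ferret replicate 2 (1.08). The count higher in ferret lay between 10 and 14, and the count lower between 14 and 19. The replicate block, in which the shared number joins animals of different species, changed no call (10 higher, 16 lower). The median difference of the members was -0.23 without a filter, -0.06 under quantile normalization, -0.10 under both rescalings, and -0.47 to -0.40 when a library was left out.

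Signs turned under quantile normalization, rescaling to 1000000 and rescaling to the mean sum, respectively, for B4galt7 (0.34, 0.29, 0.26), Galnt16 (0.28, 0.28, 0.28), St3gal1 (0.17, 0.07, 0.06), St3gal2 (0.18, 0.17, 0.17), St3gal3 (0.22, 0.17, 0.16) and St3gal5 (0.12, 0.10, 0.10), and for the pathway gene Gne (0.36, 0.32, 0.29). When a library was left out, B4galt7 ranged from -0.18 to 0.01 (without mouse replicate 2 and 1) and Fut11 from -0.04 to 0.04 (without ferret replicate 1 and 2). None of these was called. The alternatives for pathway genes were added after seeing the data. The cause was not tested. Depth was not examined here, which limits what can be said of members under 1 FPKM.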
